A study of Homo sapiens with 3 samples.

Results

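Heat shock chaperones and their co-chaperones were followed as a group of 42 listed genes in KMS11 myeloma cells given a control hairpin or a hairpin against MMSET (current symbol NSD2), of which there were 2. A gene was measured where at least 1 probe set carried its symbol and no other. It was represented by the probe set with the highest mean signal over the 3 arrays, and its other probe sets served as a check. This gave values for 38 of the 42, among 19775 genes measured in all. HSPA8 and TCP1 had 4 and 3 probe sets, all shared with the symbol of a small nucleolar RNA, so no value was taken from them, and HSF2 and AHSA1 were not analysed here. The list is labelled cytosolic, but HSPA9, HSPD1 and HSPE1 encode chaperones of the mitochondrial matrix and HSF1 encodes a transcription factor, so these are described apart from the rest.

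Chaperones bind proteins that are not folded, keep them from clumping and let them fold, mostly through cycles of ATP binding and hydrolysis. HSP70 proteins take up new or damaged chains that HSP40 (DNAJ) proteins bring to them, nucleotide exchange factors of the BAG and HSP110 families let the chain go again, and HSP90 with its co-chaperones matures kinases, steroid receptors and other signalling proteins. The ring-shaped chaperonin TRiC folds actin, tubulin and other proteins. When unfolded proteins pile up, heat shock factor 1 (HSF1) binds arrays of the short unit GAA and its inverse TTC in promoters, and transcription of many of these genes goes up. Myeloma cells secrete large amounts of antibody chains and are known to be sensitive to inhibitors of the proteasome and of HSP90.

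KMS11 is an established human multiple myeloma line with the t(4;14) translocation, which brings NSD2, the gene of an enzyme that methylates histone H3, next to enhancers of the immunoglobulin heavy chain locus. Cells of this single line were infected with lentiviruses carrying a short hairpin RNA, with polybrene present, and were collected at 48 h. The groups were shLuc, a hairpin named for luciferase that served as the control, shMMSET#2 and shMMSET#4, with 1 array each. No array of uninfected cells was used here. The title of the series points to the question of which transcription factors needed by t(4;14) myeloma cells are regulated by MMSET. Without replicates no test could be made, so "higher" and "lower" below mean at least 1.5-fold between 2 arrays, and the share of all 13296 tested genes past the same fold is given as the background. In a bulk culture, fewer cells making a transcript and less of it per cell cannot be told apart.

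The arrays had been scaled to the same trimmed mean of 500.1, and their median signals were 59.5 to 77.4, the highest on the shLuc array. NSD2 itself was below shLuc on 6 of its 6 probe sets with shMMSET#2 and on 5 of 6 with shMMSET#4. On the brightest of these its signal was 10299.8 (shLuc), 7032 (shMMSET#2) and 7476 (shMMSET#4), 1.46-fold and 1.38-fold below shLuc. The size differed widely between probe sets: on 3 dimmer ones the signal was below shLuc by 3.83-fold to 6.45-fold for shMMSET#2 and by 1.42-fold to 3.07-fold for shMMSET#4. The others lay 1.65-fold and 1.45-fold below shLuc with shMMSET#2, but 1.09-fold below and 1.04-fold above it with shMMSET#4. All 10 markers of plasma cells and of t(4;14) myeloma lay above the array median on each array. With shMMSET#2, 5 of these 10 were lower (background 22.5% of all tested genes), among them SLAMF7 (5.85-fold), IRF4 (2.86-fold) and PRDM1 (2.29-fold), and with shMMSET#4 1 was lower (20.6%) and 1 higher (17.3%). Their median log2 ratios were -0.59 and -0.13, and their part in the results on chaperones was not tested. Of 11 measured markers of other cell types, 5 to 6 lay above it, with EPCAM at 4391 to 10651 and PECAM1 at 295 to 618, and 2 to 6 were at or under 41.2, the floor set for dim signals. Their summed signal was 9636 (shLuc), 5414 (shMMSET#2) and 11838 (shMMSET#4), so the control array lay between the others. For ACTB, the log2 signal at the 3' end was above that at the 5' end by 1.70 with shLuc and by 1.14 with each MMSET hairpin, while for GAPDH this difference was 0.04, 0.10 and 0.00. The ACTB value sets the control array apart from both others, as every ratio to shLuc below does, and its part in these ratios was not tested.

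With shMMSET#2, 13 of the 38 chaperone genes were higher than with shLuc, or 34.2%, against a background of 16.2% of all tested genes. A single member, DNAJB2, was lower, against a background of 22.5%. With shMMSET#4, 12 of the 38 were higher, or 31.6%, against a background of 17.3%, and 2, HSF1 and DNAJB2, were lower, against 20.6%. At a threshold of 2-fold, 6 members were higher with shMMSET#2 (background 5.69%) and 6 with shMMSET#4 (background 6.74%), while none and 1 were lower (backgrounds 10.7% and 8.95%). The median log2 ratio of the members was 0.39 with shMMSET#2 and 0.34 with shMMSET#4, beside -0.04 and -0.02 for all tested genes. Past the spread between the hairpin arrays, taken as the ratio within which 95% of genes of the same signal decile lie, 5 members were higher with shMMSET#2 (background 3.58%) and 5 with shMMSET#4 (background 3.99%), and none was lower (backgrounds 5.93% and 4.57%). With shMMSET#2 these were HSP90AA1, STIP1, CHORDC1, FKBP4 and HSPH1, and with shMMSET#4 HSP90AA1, CHORDC1, FKBP4, HSPH1 and STUB1. Both comparisons use the same shLuc array, so their likeness is no independent support for either.

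**Figure D1:**
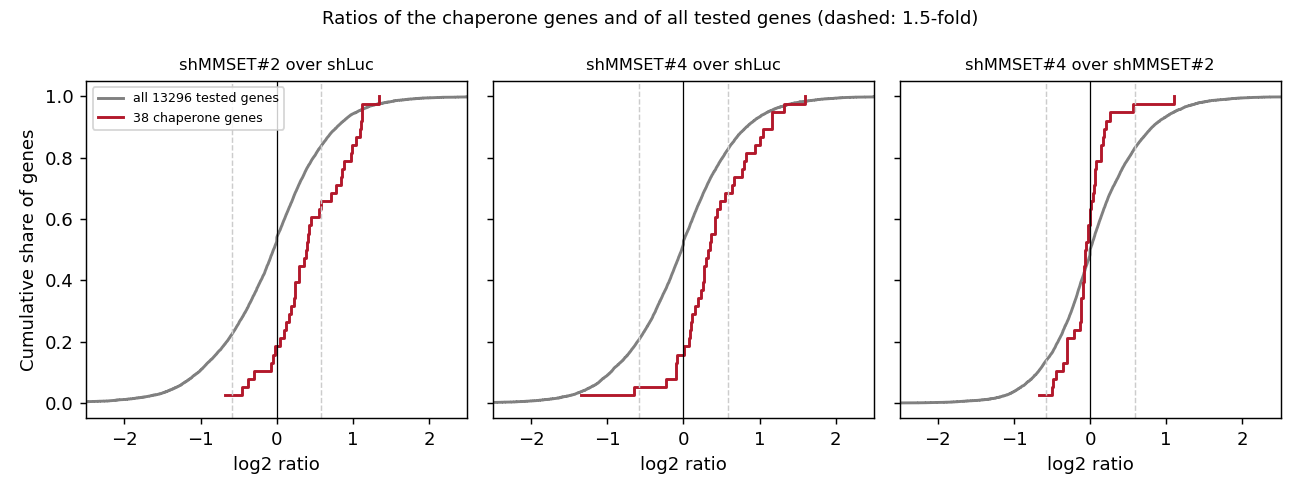
Cumulative share of genes (vertical axis) at or below each log2 ratio (horizontal axis, shown from -2.5 to 2.5) for the 38 chaperone genes in red and all 13296 tested genes in grey, with 1 panel for each comparison of 2 arrays and dashed lines at 1.5-fold. In the panels against shLuc the red line lies to the right of the grey line over most of its course, with medians of 0.39 and 0.34 against -0.04 and -0.02, whereas between the hairpins the members are packed near 0.

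All 38 members lay above the median signal on each of the 3 arrays, so none was tested only because it was high on 1 of them, and 32 of them were in the 3 brightest deciles of tested genes. Within those deciles 12 of 32 members were higher with shMMSET#2 against 15.9% of the genes, and 12 of 32 were higher with shMMSET#4 against 15.5%. No member there was lower, against 13.7% and 11% of the genes. The members' shares thus stood further above the background among bright genes than among all genes. The scaling matters for these counts. When each array was set to the same median signal, all tested genes shifted to medians of 0.25 and 0.34, and 23 and 25 members were higher, against 30.1% and 34.7% of all genes. Of all genes past 1.5-fold with shMMSET#2, 41.8% were higher as deposited and 69.6% at equal medians, and with shMMSET#4 45.6% and 77.5%. Relative to the median of all genes, the members' median with shMMSET#2 was 0.43 as deposited, 0.45 at equal medians and 0.37 after quantile normalization. With shMMSET#4 it was 0.36, 0.38 and 0.32. Ratios near 0 changed sign at equal medians, namely those of HSF1, BAG2, HSPD1 and HSPB1 with shMMSET#2 and of DNAJB4, DNAJC7, CCT3 and HSPB1 with shMMSET#4, from below to above shLuc. Quantile normalization turned BAG2 and HSPD1 with shMMSET#2 and BAG5 and CCT3 with shMMSET#4.

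**Figure D2:**
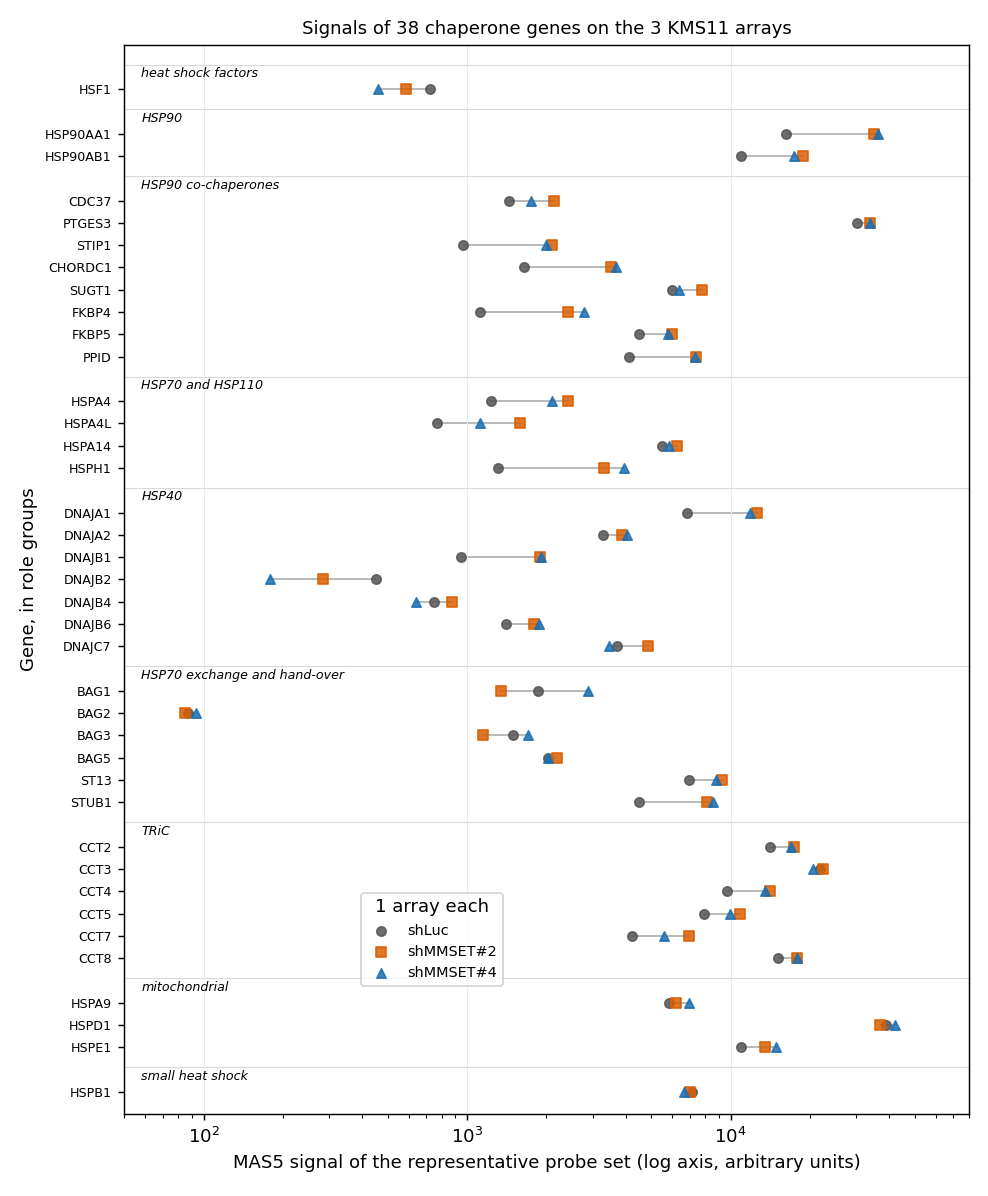
MAS5 signal (horizontal log axis) of the representative probe set of each of the 38 chaperone genes, in rows grouped by role, on the shLuc array (grey circles), the shMMSET#2 array (orange squares) and the shMMSET#4 array (blue triangles), 1 array each, joined by a line. Signals compare only within a row, since probe sets differ in brightness. The control lies left of both hairpins for both HSP90 genes and for HSPH1, and right of both for DNAJB2 and HSF1.

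The HSP90 genes were higher with each hairpin. HSP90AA1, the stress-inducible cytosolic HSP90, had signals of 16185 (shLuc), 35067 (shMMSET#2) and 36147 (shMMSET#4). This is 2.17-fold and 2.23-fold higher, past the 1.85-fold spread of its signal decile. HSP90AB1, the constitutive form, had 10991, 18779 and 17358, which is 1.71-fold and 1.58-fold higher and inside that spread. In both genes the control was the lowest of the 3 arrays. The 3 other HSP90AA1 probe sets had log2 ratios of 0.89 to 1.86 with shMMSET#2 and 0.88 to 1.86 with shMMSET#4, and the 2 other HSP90AB1 probe sets were 2.06-fold to 2.15-fold and 2.01-fold to 2.06-fold higher.

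Among 8 measured HSP90 co-chaperones, 4 were higher with shMMSET#2 and the same number with shMMSET#4, none was lower (backgrounds 16.2% and 17.3% higher, 22.5% and 20.6% lower), and the lowest log2 ratios were 0.16 and 0.08. STIP1 (HOP), which bridges HSP70 and HSP90, had signals of 965 (shLuc), 2103 (shMMSET#2) and 1987 (shMMSET#4). CHORDC1, an HSP90-binding zinc protein, had 1642, 3519 and 3688. FKBP4, a peptidyl-prolyl isomerase of steroid receptor complexes, had 1116, 2412 and 2787. These are 2.18-fold, 2.14-fold and 2.16-fold higher with shMMSET#2 and 2.06-fold, 2.25-fold and 2.50-fold higher with shMMSET#4. PPID (cyclophilin 40), another isomerase of these complexes, had 4121, 7416 and 7308, or 1.80-fold and 1.77-fold higher. In all 4 the control was the lowest array. CHORDC1 and FKBP4 were past the spread between the hairpin arrays in their signal deciles (1.99-fold and 2.12-fold) in both comparisons, STIP1 was past its 2.12-fold with shMMSET#2 and at 2.06-fold with shMMSET#4, and PPID was within its 1.85-fold.

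The remaining 4 co-chaperones lay within 1.5-fold of shLuc as deposited on their representative probe sets. At equal array medians CDC37, FKBP5 and SUGT1 were past 1.5-fold with shMMSET#2 (log2 ratios of 0.90, 0.73 and 0.70), and CDC37 and FKBP5 with shMMSET#4 (0.65 and 0.75). Of all tested genes 30.1% and 34.7% were higher at this scaling. CDC37, which brings kinases to HSP90, was 1.49-fold above shLuc with shMMSET#2 (1440 and 2146) and 1.21-fold with shMMSET#4. FKBP5, an isomerase that dampens steroid receptors, was at 1.33-fold and 1.29-fold, SUGT1 at 1.30-fold and 1.06-fold, and PTGES3 (p23), which stabilises the closed HSP90, at 1.12-fold with each. The dimmer probe sets did not agree everywhere. SUGT1 probe sets with 354 and 78.1 for shLuc were 1.66-fold and 1.96-fold higher with shMMSET#2, and at 1.01-fold and 1.21-fold with shMMSET#4. A PPID probe set with 292 for shLuc had 485 with shMMSET#2 and 184 with shMMSET#4, the opposite direction with the latter, and a faint FKBP4 probe set had 59.9, 54.0 and 102. The second CHORDC1 probe set was at 6.13 to 48.0, near or under the floor, so CHORDC1 rests on 1 probe set, whereas the second STIP1 probe set had log2 ratios of 0.97 and 1.07.

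Of the 4 measured HSP70 and HSP110 genes, 3 were higher with shMMSET#2 (background 16.2%) and 2 with shMMSET#4 (17.3%). HSPH1 (HSP110), an exchange factor and disaggregase partner of HSP70, had signals of 1305 (shLuc), 3299 (shMMSET#2) and 3956 (shMMSET#4), or 2.53-fold and 3.03-fold higher. Only 2.43% and 1.60% of tested genes had a higher ratio, and its 2 other probe sets had log2 ratios of 1.46 to 1.80 and 1.53 to 1.63. HSPA4, of the same HSP110 branch, had 1237, 2422 and 2099, or 1.96-fold and 1.70-fold higher, and its 3 other probe sets had log2 ratios of 0.12 and 0.49 at the dimmest and of 0.60 and 0.71 at the brightest. HSPA4L, its paralogue, had 769.6, 1584 and 1123, which was 2.06-fold higher with shMMSET#2 and 1.46-fold above shLuc with shMMSET#4. A second HSPA4L probe set gave log2 ratios of only 0.25 and 0.18. HSPA14, an HSP70 that works at the ribosome, was at 5486, 6256 and 5841 on its representative probe set, within 1.14-fold. Its 2 dimmer probe sets had log2 ratios of 0.84 and 0.80 with shMMSET#2 and of 1.10 and 1.58 with shMMSET#4, so the size of the HSPA14 difference depends on the probe set.

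Of the 7 HSP40 genes, which deliver clients to HSP70 and speed up its ATPase, 2 were higher and 1 was lower in each comparison with shLuc. Of all tested genes 16.2% and 17.3% were higher and 22.5% and 20.6% lower. DNAJA1, the main farnesylated HSP40, had signals of 6848 (shLuc), 12600.3 (shMMSET#2) and 11843 (shMMSET#4), or 1.84-fold and 1.73-fold higher. DNAJB1 (HSP40 proper), a classic stress-inducible gene, had 949, 1888 and 1901, or 1.99-fold and 2.00-fold higher. The control was the lowest array for both, and the second probe set of each was also higher, for DNAJA1 by 1.86-fold and 1.55-fold and for DNAJB1 by 1.83-fold and 2.00-fold. DNAJB2, which guides ubiquitinated clients towards the proteasome, went the other way with 452, 283 and 178, or 1.60-fold and 2.54-fold lower, inside the 2.64-fold spread of its dimmer signal decile and measured by a single probe set. With shMMSET#2 its log2 ratio was within 1.5-fold at equal array medians (-0.35) and after quantile normalization (-0.57), and with shMMSET#4 it was -0.96 and -1.18. DNAJA2 and DNAJB6 lay 1.18-fold to 1.33-fold above shLuc in both comparisons as deposited. At equal array medians 4 of the 7 HSP40 genes were higher with each hairpin, beside 30.1% and 34.7% of all tested genes. DNAJB6 was among them with each, DNAJC7 with shMMSET#2 and DNAJA2 with shMMSET#4. DNAJB4 and DNAJC7 lay above shLuc with shMMSET#2 (log2 ratios of 0.22 and 0.39) and below it with shMMSET#4 (-0.23 and -0.10), all within 1.5-fold. The 2 dimmer DNAJC7 probe sets were below shLuc on both arrays, 1 by 1.83-fold and 2.05-fold and the other by 1.16-fold and 1.47-fold. The second DNAJB4 probe set lay above shLuc on both (0.02 and 0.51), so the direction with shMMSET#4 depends on the probe set.

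**Figure D3:**
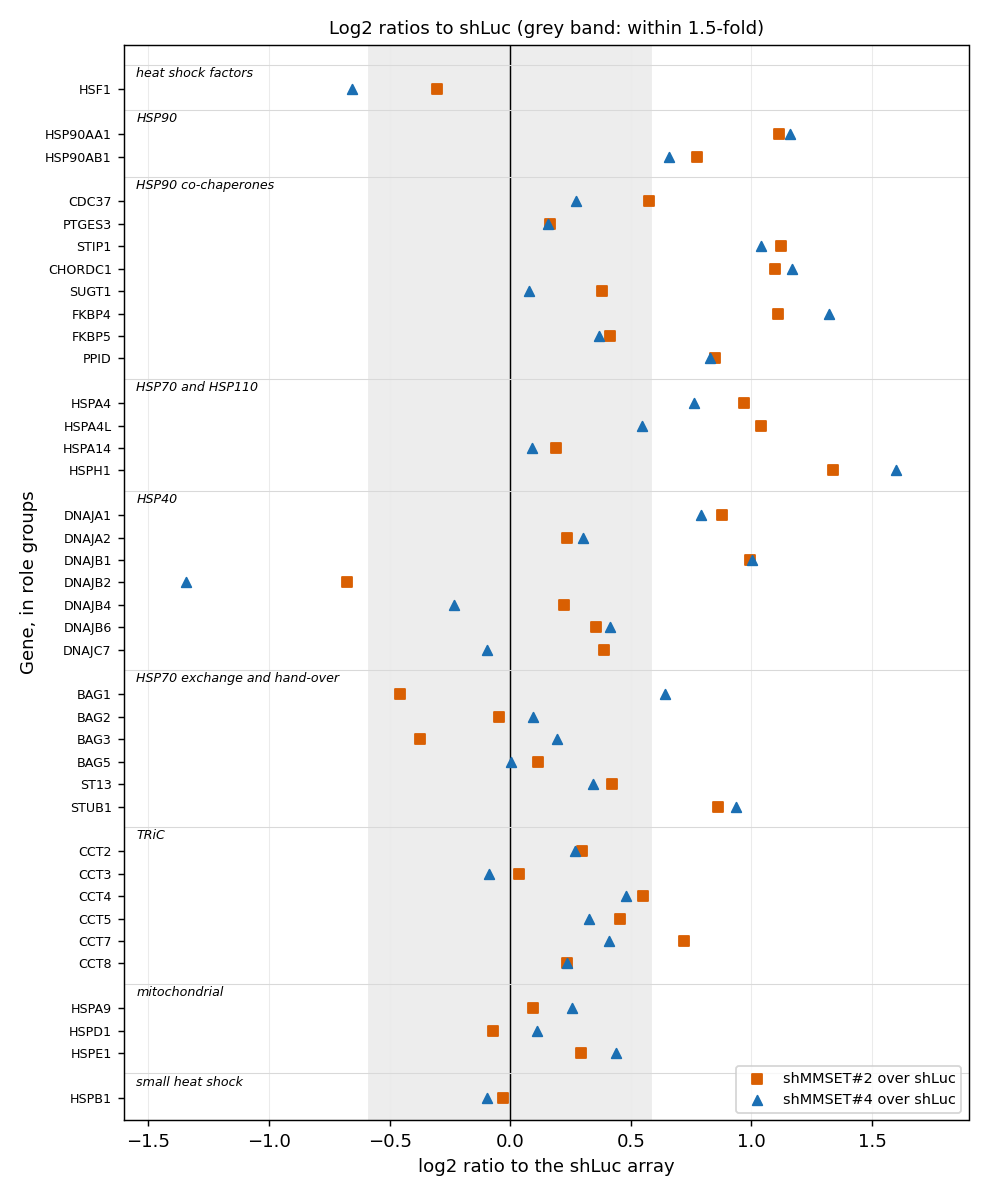
Log2 ratio to the shLuc array (horizontal axis) of the representative probe set of each of the 38 chaperone genes, in rows grouped by role, with shMMSET#2 (orange squares) and shMMSET#4 (blue triangles), 1 array each. The grey band covers ratios within 1.5-fold. HSPH1 reaches 1.34 and 1.60, DNAJB2 lies at -0.67 and -1.34, and the TRiC, mitochondrial and small heat shock genes lie in the band except CCT7 with shMMSET#2.

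Of the 6 genes that release HSP70 clients or hand them over, 1 was higher with shMMSET#2 and 2 with shMMSET#4, beside backgrounds of 16.2% and 17.3%, and none was lower (22.5% and 20.6%). STUB1 (CHIP), the ubiquitin ligase that marks clients of HSP70 and HSP90 for degradation, had signals of 4492 (shLuc), 8156 (shMMSET#2) and 8591.5 (shMMSET#4), or 1.82-fold and 1.91-fold higher, the latter past the spread of its decile. Its 2 other probe sets had log2 ratios of 1.05 to 1.16 and 1.25 to 1.38, and the control was the lowest array on each. ST13 (HIP), which slows the release of HSP70 clients, was at 1.34-fold and 1.27-fold. Its dimmest probe set was 1.60-fold higher with shMMSET#2 and at 1.10-fold with shMMSET#4. BAG1, an exchange factor linked to the proteasome, had 1851, 1348 and 2884, so the control lay between the hairpin arrays. On this probe set it was 1.37-fold below shLuc with shMMSET#2 and 1.56-fold higher with shMMSET#4. The latter call was lost by a small margin after quantile normalization (log2 ratio of 0.58). BAG3, an exchange factor of stress and autophagy, lay likewise between them with 1491, 1149.9 and 1707, within 1.5-fold of both. BAG2 and BAG5, which inhibit or exchange on HSP70, lay at most 1.08-fold from shLuc, and BAG2 was dim, with signals of 84.7 to 93.2 and a second probe set that was 1.77-fold and 1.78-fold below shLuc.

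Of the 6 measured subunits of the chaperonin TRiC, 1 was higher with shMMSET#2 and none with shMMSET#4, beside 16.2% and 17.3% of all tested genes, and none was lower (22.5% and 20.6%). The log2 ratios ran from 0.04 to 0.72 and from -0.09 to 0.48. CCT7 had signals of 4209.97 (shLuc), 6927 (shMMSET#2) and 5594 (shMMSET#4), or 1.65-fold higher with shMMSET#2 and 1.33-fold above shLuc with shMMSET#4. CCT4 was at 1.46-fold and 1.39-fold, CCT5 at 1.37-fold and 1.25-fold, CCT2 at 1.23-fold and 1.20-fold, and CCT8 at 1.18-fold with each. A dim CCT4 probe set with 76.1 for shLuc was at 2.02-fold and 1.19-fold. CCT3 was within 1.06-fold. The control was thus the lowest array for 5 of the 6 subunits, each by a small margin that is inside the 1.85-fold spread of this brightest decile. The size of this small shift depends on the scaling, which moves all tested genes as well. At equal array medians 4 and 5 of the 6 subunits were higher, beside 30.1% and 34.7% of all tested genes. After quantile normalization 1 and none were, as many as deposited, beside 19.1% and 21.5%.

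The mitochondrial chaperone genes and the small heat shock protein gene lay within 1.5-fold of shLuc as deposited. At equal array medians HSPE1 was past 1.5-fold with shMMSET#2 (log2 ratio of 0.61), and HSPE1 and HSPA9 with shMMSET#4 (0.82 and 0.64), while quantile normalization put HSPD1 past it with shMMSET#4 (0.61). Of all tested genes 30.1% and 34.7% were higher at equal medians, and 21.5% with shMMSET#4 after quantile normalization. HSPD1 (HSP60) had signals of 38906 (shLuc), 37018 (shMMSET#2) and 42037 (shMMSET#4). HSPE1 (HSP10), the lid of the HSP60 barrel, had 10999, 13461 and 14892. HSPA9 (mortalin), the HSP70 of the matrix, had 5826, 6215 and 6964. For these 3 genes the shMMSET#4 array was the highest, and the largest ratio to shLuc was 1.35-fold. A second HSPD1 probe set with 13230, 15971 and 18768 gave log2 ratios of 0.27 and 0.50, so the size for HSPD1 varies with the probe set. HSPB1 (HSP27), a small heat shock protein that holds unfolded chains without ATP, had 7129.7, 6988 and 6673, a spread of 1.07-fold over the 3 arrays.

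HSF1, the factor that drives heat shock transcription, had signals of 722 (shLuc), 585 (shMMSET#2) and 458 (shMMSET#4). The control was the highest array, with HSF1 1.23-fold below it for shMMSET#2 and 1.57-fold lower for shMMSET#4, inside the 2.29-fold spread of its decile. At equal array medians the call with shMMSET#4 was lost (log2 ratio of -0.27), and the ratio with shMMSET#2 turned from -0.30 to 0.02. The other HSF1 probe set was close to the floor, with signals of 29.9 to 76.0. The array measures HSF1 transcript only, so the binding or activity of the factor is not read out here.

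**Figure D4:**
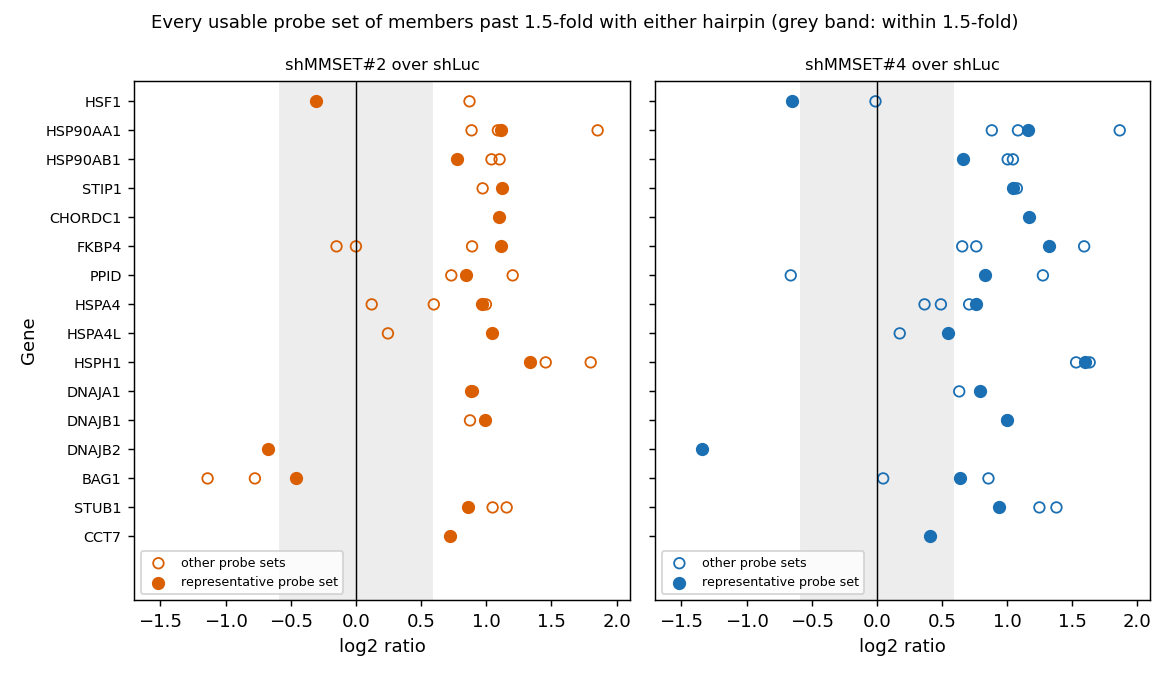
Log2 ratio to shLuc (horizontal axis) of every probe set above the array median on at least 1 array, for the 16 members past 1.5-fold with either hairpin (rows), with shMMSET#2 in the left panel and shMMSET#4 in the right. Filled points are the representative probe sets, open points the others, and the grey band covers ratios within 1.5-fold. The HSP90AA1, HSP90AB1, HSPH1 and STUB1 probe sets all lie right of the band, and a PPID probe set lies left of it with shMMSET#4.

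The probe sets that did not represent their gene give a second reading of the same arrays. For the 13 genes higher with shMMSET#2, 11 had such probe sets, 21 in number, of which 19 were above shLuc and 17 were past 1.5-fold. For the 12 genes higher with shMMSET#4, 11 had 22, of which 21 were above shLuc and 18 past 1.5-fold. Over all members, 39 of 48 such probe sets were above shLuc with shMMSET#2 and 41 of 48 with shMMSET#4. On representative probe sets, 46.1% and 47.3% of all tested genes lay above shLuc, and 16.2% and 17.3% were higher. No such share was taken over the other probe sets of all genes. The 21 and 22 probe sets belong to genes picked as higher on the same arrays, so a high share was likely from the start. The other probe sets share RNA, labelling and array with the representative ones and are no replicates.

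The direct comparison of the hairpin arrays does not use the control. Here 36 of 38 members were within 1.5-fold, against 69.5% of all tested genes, and the median member differed by 1.09-fold against 1.28-fold for the median tested gene. The members are brighter than most genes, and bright genes differed less. Of the members, BAG1 was higher with shMMSET#4 (background 16.9%), by 2.14-fold, which is past the 2.12-fold spread of its decile. The gene was also past 2-fold here (background 6.6%, and 3.56% for the spread), and its 2 other probe sets pointed the same way, with signals of 1270 and 148 on the shMMSET#2 array and 2248 and 590 on the shMMSET#4 array. DNAJB2 was lower with shMMSET#4 (background 13.6%), by 1.59-fold, inside its spread. No member was lower by 2-fold or past the spread (backgrounds 3.72% and 1.47%). Among the 32 members of the 3 brightest deciles, 1 was higher (background 9.95%) and none lower (background 7.12%). On their representative probe sets the HSP90 genes, their co-chaperones and the TRiC subunits all had log2 ratios between -0.31 and 0.21 in this comparison. Over all probe sets above the array median the range was wider, from -1.39 for a PPID one to 0.91 for a faint FKBP4 one. A brighter FKBP4 probe set with 492 (shLuc), 913 (shMMSET#2) and 1483 (shMMSET#4) gave 0.70. Those of the HSP90 genes stayed between -0.11 and 0.04.

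**Figure D5:**
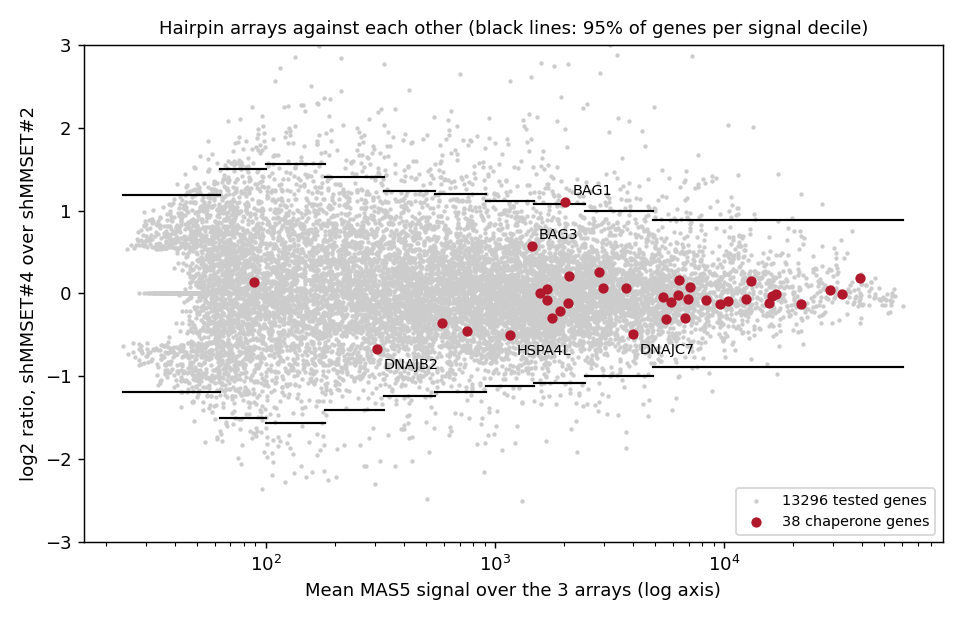
Log2 ratio of shMMSET#4 to shMMSET#2 (vertical axis, shown from -3 to 3, with 8 tested genes outside) against the mean MAS5 signal over the 3 arrays (horizontal log axis) for 13296 tested genes in grey and the 38 chaperone genes in red. Black lines mark, for each decile of signal, the ratio within which 95% of genes lie. BAG1, at 1.10, is the member past these lines.

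The promoters of several members carry the arrays of GAA units that HSF1 binds. A strict array of 3 units, in which GAA, TTC and GAA follow each other with NN (any 2 bases) between them, was searched on both strands in windows of 300 bases, 250 before and 50 after each start in the RefSeq table of GRCh38.p14. On the other strand it reads TTC, GAA and TTC, so matches can share units and overlap. It was present for 7 of the 37 listed genes with a window in this table, or 18.9%, and for 0.61% of all 27305 genes with a window. The 7 were HSP90AA1, HSP90AB1, CHORDC1, DNAJA1, DNAJB6, HSPD1 and HSPA8, the last without a value on these arrays. HSF1, FKBP4, HSPA14, ST13 and STUB1 had no window in the table. The windows of the 6 measured genes are printed because they show both sides: as deposited, the first 4 belong to genes that were higher with each hairpin, and the last 2 to genes that were not. This split depends on the scaling. At equal array medians DNAJB6 was past 1.5-fold with each hairpin, and after quantile normalization HSPD1 was past it with shMMSET#4. Where a gene has several windows (2 for HSP90AA1 and HSPD1, 3 for HSP90AB1), the one with a match is shown. Capitals mark every match, and the sequence runs 5' to 3' on the strand of the gene.
HSP90AA1, chr14:102086995-102087294 (minus strand): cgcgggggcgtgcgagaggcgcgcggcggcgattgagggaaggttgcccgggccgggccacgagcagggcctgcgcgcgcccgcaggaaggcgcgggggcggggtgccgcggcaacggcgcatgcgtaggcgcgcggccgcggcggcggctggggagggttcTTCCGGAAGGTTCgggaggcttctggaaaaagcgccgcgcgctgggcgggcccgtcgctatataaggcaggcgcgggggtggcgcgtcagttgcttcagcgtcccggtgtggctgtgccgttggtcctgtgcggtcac
HSP90AB1, chr6:44247693-44247992 (plus strand): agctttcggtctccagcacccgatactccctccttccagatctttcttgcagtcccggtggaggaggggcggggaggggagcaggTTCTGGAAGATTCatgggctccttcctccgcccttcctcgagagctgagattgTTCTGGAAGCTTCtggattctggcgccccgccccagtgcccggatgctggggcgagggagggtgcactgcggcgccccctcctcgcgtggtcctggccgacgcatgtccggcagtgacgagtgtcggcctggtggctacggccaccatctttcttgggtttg
CHORDC1, chr11:90223000-90223299 (minus strand): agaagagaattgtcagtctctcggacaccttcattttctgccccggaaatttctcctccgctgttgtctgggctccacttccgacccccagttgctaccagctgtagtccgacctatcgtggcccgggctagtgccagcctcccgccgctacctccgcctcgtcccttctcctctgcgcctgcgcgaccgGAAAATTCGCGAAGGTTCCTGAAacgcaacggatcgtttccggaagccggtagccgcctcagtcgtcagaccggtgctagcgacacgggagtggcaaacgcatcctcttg
DNAJA1, chr9:33025023-33025322 (plus strand): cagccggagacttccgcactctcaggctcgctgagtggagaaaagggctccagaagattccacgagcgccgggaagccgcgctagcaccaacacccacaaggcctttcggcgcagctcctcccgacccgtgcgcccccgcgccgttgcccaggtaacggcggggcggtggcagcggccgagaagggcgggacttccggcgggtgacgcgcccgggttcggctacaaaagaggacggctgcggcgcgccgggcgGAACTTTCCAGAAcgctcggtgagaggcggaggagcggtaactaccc
DNAJB6, chr7:157336754-157337053 (plus strand): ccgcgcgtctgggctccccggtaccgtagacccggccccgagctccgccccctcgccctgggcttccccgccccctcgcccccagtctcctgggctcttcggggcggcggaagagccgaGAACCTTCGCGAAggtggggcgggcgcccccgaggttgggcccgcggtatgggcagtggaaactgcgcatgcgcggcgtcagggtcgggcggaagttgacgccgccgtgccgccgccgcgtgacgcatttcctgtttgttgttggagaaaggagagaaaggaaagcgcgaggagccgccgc
HSPD1, chr2:197499791-197500090 (minus strand): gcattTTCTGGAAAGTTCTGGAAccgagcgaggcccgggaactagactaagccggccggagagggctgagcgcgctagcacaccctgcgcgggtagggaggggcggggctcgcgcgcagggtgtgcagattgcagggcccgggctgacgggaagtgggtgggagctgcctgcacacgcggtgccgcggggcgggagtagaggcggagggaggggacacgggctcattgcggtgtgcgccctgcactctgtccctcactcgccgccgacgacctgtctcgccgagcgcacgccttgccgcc

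In CHORDC1, 3 overlapping matches form a run that begins 60 bases before the start, and the gene was 2.14-fold and 2.25-fold higher. HSP90AA1 has a match that begins 88 bases before the start, and HSP90AB1 has a pair that begins 165 and 112 bases before the start. In DNAJA1 the match begins 3 bases after the start. DNAJB6 has a match that begins 131 bases before its start and was at 1.28-fold and 1.33-fold, and HSPD1 has a pair of overlapping matches that begin 245 and 240 bases before its start and was within 1.08-fold. As deposited, the 6 measured genes with a match had a median log2 ratio of 0.83 with shMMSET#2 and 0.72 with shMMSET#4, and 4 of 6 were higher in each. The 27 with a window but no match had 0.30 and 0.27, with 7 and 6 of them higher, among them HSPH1, STIP1, HSPA4 and DNAJB1. Of all tested genes 16.2% and 17.3% were higher. The contrast rests on 6 genes with a match and was not tested. With 1 mismatch allowed, 17 of the 37 listed genes held the motif, or 45.9%, against 7.6% of all genes. The 15 measured genes with such a match had medians of 0.45 and 0.41, and the 18 without had 0.29 and 0.29. This contrast was smaller than with the strict motif. The shorter arrays of 2 units, GAANNTTC or TTCNNGAA, were found for 18 of the 37, or 48.6%, against 16.2%. A match describes the letters in these windows only.

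Of 42 further chaperones and co-chaperones, 36 were tested, and 8 were higher and 3 lower with shMMSET#2, and 6 higher and 4 lower with shMMSET#4, with medians of 0.22 and 0.29. Of all tested genes 16.2% and 17.3% were higher and 22.5% and 20.6% lower, so the higher count with shMMSET#4 is at the background. PIH1D1, a subunit of the R2TP co-chaperone of HSP90, had signals of 762 (shLuc), 3576 (shMMSET#2) and 4870.4 (shMMSET#4), or 4.69-fold and 6.39-fold higher. PDCL, a phosducin-like partner of TRiC, was 3.56-fold and 2.18-fold higher. FKBP8, an isomerase of membranes, was dim, with 97.9, 48.9 and a value under the floor, so it was 2.00-fold lower and at least 2.37-fold lower, and a second probe set pointed the other way with shMMSET#2. CCT6A, a TRiC subunit outside the list, named here to complete the complex, lay at 1.47-fold and 1.31-fold, within the range of the other subunits. HSPA1A and HSPA1B, the main inducible HSP70 genes, had no probe set of their own symbol alone and were not analysed here.

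Prefoldin, which hands actin and tubulin to TRiC, had 5 tested subunits. PFDN1 was higher in both comparisons (443, 972 and 828). VBP1, named after its values were seen, was lower with shMMSET#2 and above shLuc with shMMSET#4 (12281, 7424 and 14295). On their representative probe sets, PFDN2, PFDN4 and PFDN5 lay at most 1.42-fold from shLuc. PFDN4 has 2 further usable probe sets. Their log2 ratios were -0.33 and 1.23 for shMMSET#2. For shMMSET#4 these were 0.15 and 1.47. The size for PFDN4, and its direction with shMMSET#2, thus depend on the probe set. Of 9 tested genes known as HSF1 targets but not chaperones of the cytosol, 2 were higher and 3 lower with each hairpin, with medians of 0.27 and 0.07, beside the same backgrounds. The lower ones were SERPINH1 (HSP47), a collagen chaperone, with 749, 226 and 418, and the stress transcription factor genes JUN (7346, 4157 and 1919) and ATF3 (2141, 1169 and 867). Another ATF3 probe set pointed the other way with shMMSET#2. MRPL18, named after its values were seen, was 1.73-fold and 1.76-fold higher. The second higher gene, named likewise, was SQSTM1 with shMMSET#2 (1.77-fold) and HMOX1 with shMMSET#4 (1.75-fold). The 3 other SQSTM1 probe sets above the array median lay below shLuc with shMMSET#2 (log2 ratios of -0.60 to -0.10).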

How the data were processed

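Per the submitters' processing notes and the labels, the deposited values are MAS5 intensities, linear signals per probe set, from biotin-labelled total RNA of 3 samples, and the design text names GeneSpring. Their versions and settings are not given in the sources used here. An array type called U133A is named in the design text, whereas the 54675 probe set identifiers are those of the HG-U133 Plus 2.0 array, whose annotation was used. The 2% trimmed mean was 500.1 on each array, so the deposited values had already been scaled to a common level and were not rescaled.

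Leaving out 62 control probe sets, 41091 probe sets had 1 symbol, 1801 several (unused) and 11721 none. For 41037, symbols were updated by Entrez identifier against RefSeq (GRCh38.p14). Signals were floored at their 40th percentile, 41.2, and log2-transformed. MAS5 signals near the floor are noisy, so ratios of dim genes are the least sure. Genes above the array median on at least 1 array were tested (13296). Samples were grouped by title, with 1 array per group, so calls rest on size (1.5-fold) and no p-value was computed. Precision is limited by having 3 arrays. The yardstick of spread is the 95% range of the ratio between the hairpin arrays in each signal decile, which also holds real differences between hairpins.

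All members and NSD2 are named, and from each of the 4 other gene lists up to 3 genes with the largest smaller ratio of like sign. Named outside this rule, after their values were seen, are cell type markers, CCT6A, TRAP1, DNAJA3, GRPEL1, PFDN2, VBP1, MRPL18, SQSTM1, HMOX1, HSPA5 and HSP90B1. HSPA1A and HSPA1B, which have no value here, are also named outside it. The members and lists were chosen with earlier results of these data known. Alternatives were 2 other scalings, 2 other floors, 3 other filters, 2 other choices of probe set, thresholds of 2-fold and 3-fold, and 1 mismatch in the motif. Steps were tested on simulated data. Tables were computed with pandas 2.3.3 and numpy 2.4.6 under Python 3.11.15, and plots drawn with matplotlib 3.10.9.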

Additional observations from a re-analysis of the deposited data

Results flagged for a closer look

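BAG1 moved in opposite directions with the hairpins on its representative probe set, 1.37-fold below shLuc with shMMSET#2 and 1.56-fold above it with shMMSET#4. The log2 ratio of shMMSET#4 to shMMSET#2 was 1.10, and with 1 array per hairpin this difference was not tested. The log2 ratios of its dimmer probe sets to shLuc were -0.78 and -1.14 with shMMSET#2 and 0.05 and 0.86 with shMMSET#4.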

How the results depend on the processing

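The median log2 ratio of the members remained above 0 against shLuc under all 9 alternatives of scaling, floor, filter and probe set, and it moved by over 0.1 only at equal array medians, to 0.71 with shMMSET#2 and 0.72 with shMMSET#4. The number of higher members changed from 13 and 12 to 23 and 25 at equal medians, to 6 and 6 at 2-fold, and to 0 and 1 at 3-fold. Of all tested genes 16.2% and 17.3% were higher as deposited, 30.1% and 34.7% at equal medians, and 5.69% and 6.74% at 2-fold. The counts at 3-fold are given without such a share and are not read against one. When _x_at and _s_at probe sets were dropped, 25 members were left, of which 9 were higher with shMMSET#2 (background 16.1%) and 6 with shMMSET#4 (16.2%), and the mean over all probe sets left 10 of 37 higher with shMMSET#4 (12.9%). After quantile normalization the counts of 13 and 12 were kept (backgrounds 19.1% and 21.5%), but with shMMSET#4 BAG1 (0.58) was replaced by HSPD1 (0.61). The 1 lower member with shMMSET#2 became 0 at 2-fold, 3-fold, equal medians and quantile normalization, and 2 with the mean over all probe sets or with _x_at and _s_at dropped. The backgrounds were 22.5% as deposited, 10.7% at 2-fold, 13.2% at equal medians and 18.6% after quantile normalization. They were 17.8% with the mean and 24.3% with _x_at and _s_at dropped. The 2 lower members with shMMSET#4 became 1 at 2-fold, at equal medians and with the mean over probe sets, 0 at 3-fold, and 3 with _x_at and _s_at dropped. Here the backgrounds were 20.6% as deposited, 8.95% at 2-fold, 10.1% at equal medians, 16.8% with the mean and 23.4% with _x_at and _s_at dropped. Between the hairpins, the 1 member higher with shMMSET#4 (background 16.9%) became 2 at equal medians (19.6%) and under both other choices of probe set, and 0 at 3-fold. For these choices the backgrounds were 12.8% with the mean and 16.7% with _x_at and _s_at dropped. The 1 lower member (13.6%) became 0 at 2-fold (3.72%) and 3-fold, 2 with the mean over probe sets (9.92%) and 4 with _x_at and _s_at dropped (15.6%). The promoter motif was held by 7 listed genes, and by 17 with 1 mismatch. Of the called ratios of single members, 2 changed sign, both with _x_at and _s_at dropped, FKBP4 with shMMSET#2 (-0.15) and PPID with shMMSET#4 (-0.66), because only a dim probe set was left. No paired analysis was possible because each group has 1 array. Signal over background limits BAG2, the dim HSF1 probe set and FKBP8.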

Other observations

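Chaperones and related genes of the endoplasmic reticulum, where antibody chains fold in plasma cells, were measured on the same arrays. Of 14 tested genes, 2 were higher and 1 lower with shMMSET#2, and 7 were higher and 1 lower with shMMSET#4, with median log2 ratios of 0.24 and 0.50. Of all tested genes 16.2% and 17.3% were higher and 22.5% and 20.6% lower, with medians of -0.04 and -0.02, so the higher count is near the background with shMMSET#2 and above it with shMMSET#4. CRELD2, a target of the unfolded protein response, had signals of 1289 (shLuc), 2626 (shMMSET#2) and 4154 (shMMSET#4), or 2.04-fold and 3.22-fold higher. CANX (calnexin), a lectin chaperone, was 1.94-fold and 2.28-fold higher, and MANF, a stress-induced secreted factor, was at 1.49-fold and 1.52-fold. HSPA5 (BiP), the HSP70 of this compartment, chosen after its values were seen, had 24800, 11922 and 22398, so it was 2.08-fold lower with shMMSET#2 and within 1.11-fold with shMMSET#4. HSP90B1 (GRP94), chosen likewise, had 14308, 10565 and 14586, so it was 1.35-fold below shLuc with shMMSET#2. On their representative probe sets, the mitochondrial chaperone genes outside the main list TRAP1, DNAJA3 and GRPEL1 lay at most 1.33-fold from shLuc. Another GRPEL1 probe set had log2 ratios of 0.78 and 0.82, beside 0.04 and -0.23 on the representative one. The size for GRPEL1, and its direction with shMMSET#4, thus depend on the probe set.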
